A study of Danio rerio with 32 samples.

Results

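Fasting and muscle wasting genes are 7 genes linked in mammals to fasting or to loss of muscle: fbxo32, trim63a, trim63b, ulk2, sesn1, lpin1 and klf15. They were matched by Ensembl zebrafish symbol, case ignored, and each matched 1 row, so they are 7 of the 32520 genes in the files. All 7 passed the filter on low counts in both experiments. The genes were chosen by a list made with their fold changes between the low and high protein diets in these libraries already known, so every value of low protein against high protein given for them here is a description, without a test.

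When insulin signalling is low, FoxO transcription factors enter the nucleus and switch on genes of protein breakdown and autophagy. In muscle the best known of these encode the ubiquitin ligases atrogin-1 and MuRF1, which mark contractile and other muscle proteins for the proteasome. Amino acid shortage acts beside this through mTORC1, the kinase complex that promotes growth and holds autophagy back, and glucocorticoids act through their receptor on several of the same genes.

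The 32 libraries hold RNA of whole zebrafish larvae aged 20 days and belong to 2 experiments. Experiment 1 had pllp pd1116 mutants, pllp pd1245 mutants and EK, the wild-type strain, each on a low protein (LP) or a high protein (HP) diet, with 3 libraries in each group. Experiment 2 had a pd1245 line described as adapted, and EK, on the same diets, with 4 libraries per line on LP and 3 per line on HP. pllp encodes plasmolipin, a membrane protein of gut epithelium; the submitters call pd1245 of experiment 1 a new mutation with poor survival under restricted nutrition, and pd1116 an old one whose survival defect has adapted. No agent or transgene is given, EK carries neither allele, and the labels give no number of larvae, tanks or clutches per library, so p-values measure spread between libraries that may be technical. No group was labelled as fasted and no muscle mass is given. The 2 experiments used different library kits and were fitted separately.

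Total counts were 19838912 to 29147958 per library in experiment 1 and 3713048 to 12929536 in experiment 2, where EK on HP replicate 2 was the shallowest. Counts of pllp checked the labels of mutants against EK, and on LP they do not tell pd1116 from pd1245. CPM is the count scaled to the size of the library. On LP pd1116 had 6.49 to 8.03 and pd1245 3.39 to 7.02 CPM, against 12.8 to 17.1 CPM in EK. On HP pd1116 had 6.46 to 7.03 and pd1245 9.22 to 10.2 CPM, against 11.3 to 12.5 CPM in EK. In experiment 2 the adapted line had 5.85 to 7.72 CPM on LP and 5.41 to 7.52 CPM on HP, against 24.6 to 38.3 CPM in EK on LP and 29.6 to 37.2 CPM in EK on HP. One library stood apart: pd1245 on LP replicate 3 had 14.4% of its counts on ribosomal protein genes, and no other library of experiment 1 passed 9.04%. All 24 fast muscle, 12 slow muscle and 13 cardiac marker genes had counts in some library of each experiment. This does not measure how much muscle RNA a library holds. In whole larvae, fewer cells of a type and less RNA per cell cannot be told apart.

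fbxo32 (ENSDARG00000040277) encodes atrogin-1, the F-box subunit of a muscle ubiquitin ligase. Its CPM in pd1245 were 49.9, 96.0 and 102 on LP, against 16.96, 55.8 and 26.7 on HP. In pd1116 they were 26.4, 66.6 and 44.2 on LP, against 22.2, 22.1 and 18.8 on HP. All pd1116 libraries on LP were above all on HP, and in pd1245 the lowest LP library fell below the highest HP library. EK of experiment 1 on LP had 29.6, 11.1 and 17.4 CPM, against 53.8, 27.9 and 18.1 CPM on HP. Here the groups overlapped and the HP mean was the higher one. In experiment 2 the adapted line had 15.0, 28.2, 17.9 and 25.9 CPM on LP, against 3.43, 2.48 and 0.961 CPM on HP. EK had 15.1, 36.3, 13.5 and 17.7 CPM on LP, against 8.65, 9.93 and 10.2 CPM on HP. Neither pair overlapped, and the 3 adapted libraries on HP, which hold 11 to 36 counts of fbxo32, were the lowest of the experiment. The log2 fold change, LP over HP, was 1.323 ± 0.44 in pd1245, 1.12 ± 0.44 in pd1116 and -0.78 ± 0.45 in EK of experiment 1. In experiment 2 it was 3.25 ± 0.39 in the adapted line and 1.12 ± 0.34 in EK (SE of the fit throughout).

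trim63a (ENSDARG00000028027) and trim63b (ENSDARG00000086685) are the zebrafish copies of TRIM63, which encodes MuRF1, a RING ubiquitin ligase of the sarcomere. trim63a had 64.9, 129 and 180.1 CPM in pd1245 on LP, against 24.1, 66.6 and 34.6 CPM on HP. It had 52.2, 110.2 and 81.2 CPM in pd1116 on LP, against 40.3, 44.4 and 32.9 CPM on HP. As for fbxo32, the groups were apart in pd1116 and overlapped slightly in pd1245. EK of experiment 1 had 37.1, 25.2 and 36.8 CPM on LP, against 106.8, 58.8 and 30.6 CPM on HP. The adapted line had 71.8, 120.8, 78.5 and 133 CPM on LP, against 33.2, 21.3 and 18 CPM on HP. EK of experiment 2 had 58.0, 127 (replicate 2), 74.2 and 66.3 CPM on LP, against 54.0, 37.4 and 52.2 CPM on HP. The groups did not overlap in either line of experiment 2, with the larger gap in the adapted line. The log2 fold change of trim63a was 1.58 ± 0.42 in pd1245, 1.05 ± 0.41 in pd1116, -0.99 ± 0.42 in EK of experiment 1, 2.07 ± 0.29 in the adapted line and 0.75 ± 0.28 in EK of experiment 2.

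The second copy varied over a narrower range. trim63b had 34.1 to 49.9 CPM in pd1245 on LP, against 23.4 to 35.1 CPM on HP, and 28.1 to 46.4 CPM in the adapted line on LP, against 22.4 to 26.5 CPM on HP. The groups overlapped in pd1245 and did not in the adapted line, and the log2 fold changes were 0.52 ± 0.18 in pd1245 and 0.57 ± 0.15 in the adapted line. In pd1116 the LP libraries had 30.1 to 45.0 CPM, against 37.6 to 46.0 CPM on HP, with a log2 fold change of -0.19 ± 0.18. In EK of experiment 1 all LP libraries, at 33.8 to 35.4 CPM, were below all HP libraries, at 40.8 to 64.2 CPM, with a log2 fold change of -0.58 ± 0.18. For EK of experiment 2 the log2 fold change was 0.10 ± 0.15, and the LP range of 31.8 to 34.9 CPM lay inside the HP range of 26.3 to 35.9 CPM. Whether the copies differ from each other was not tested.

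**Figure D1:**
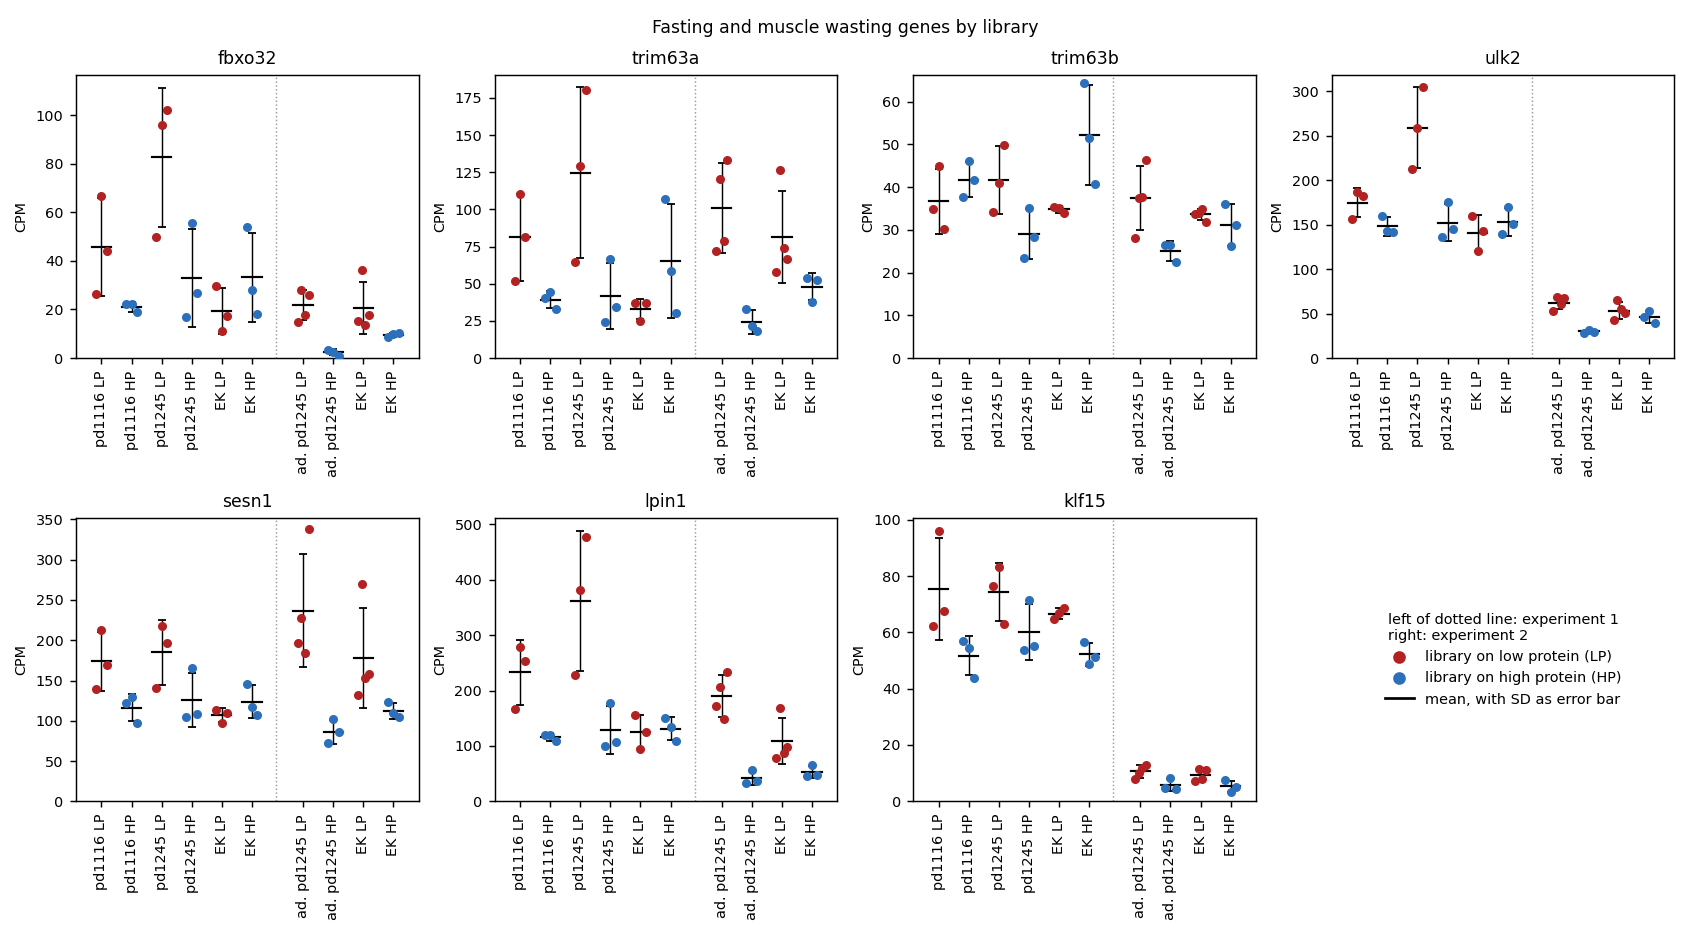
CPM of each gene in every library by line and diet, LP in red and HP in blue, with the group mean and SD in black. Experiment 1 is left of the dotted line and experiment 2 right of it. fbxo32, trim63a, ulk2, sesn1 and lpin1 had their highest experiment 1 mean in pd1245 on LP, and fbxo32 its lowest mean in the adapted line on HP, at 2.29 ± 1.25 CPM.

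ulk2 (ENSDARG00000097205) encodes one of the paired kinases, with ULK1, that start autophagosome formation. It had 213, 259 and 305 CPM in pd1245 on LP, against 136, 176 and 145 CPM on HP. The adapted line had 52.9, 68.2, 60.5 and 67.2 CPM on LP, against 28.6, 31.1 and 29.7 CPM on HP. Neither pair of groups overlapped, and the log2 fold changes were 0.77 ± 0.14 in pd1245 and 1.06 ± 0.15 in the adapted line. In pd1116 the values were 156, 186 and 182 CPM on LP, against 160.1, 142 and 142 CPM on HP, with a log2 fold change of 0.24 ± 0.14. EK of experiment 1 had 160, 119.9 and 143 CPM on LP, against 139 to 169 CPM on HP, and EK of experiment 2 had 42.8 to 65.4 CPM on LP, against 38.9 to 52.4 CPM on HP. These 3 pairs overlapped, with log2 fold changes of -0.12 ± 0.14 and 0.23 ± 0.15 in EK.

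sesn1 (ENSDARG00000020693) encodes sestrin 1, a member of the family through which leucine shortage and stress hold mTORC1 down. In the adapted line it had 196, 228, 184 and 339 CPM on LP, against 72.0, 102 and 85.5 CPM on HP. EK of the same experiment had 131, 269.6, 153 and 158 CPM on LP, against 123, 110.1 and 104 CPM on HP. Both pairs were apart, with log2 fold changes of 1.45 ± 0.24 in the adapted line and 0.66 ± 0.23 in EK. In experiment 1 pd1245 had 140.1, 218 and 196.5 CPM on LP, against 105, 165 and 108 CPM on HP. pd1116 had 139.6, 212 and 169 CPM on LP, against 122, 129 and 97.5 CPM on HP. The log2 fold change was 0.55 ± 0.19 in pd1245, where the groups overlapped, and 0.58 ± 0.19 in pd1116, where they did not. It was -0.21 ± 0.19 in EK, with 97.0 to 114 CPM on LP, against 108 to 146 CPM on HP.

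lpin1 (ENSDARG00000020239) encodes lipin 1, a phosphatidate phosphatase of triglyceride synthesis that in mouse liver also acts with PGC-1alpha on fasting genes. It had 227, 382 and 478 CPM in pd1245 on LP, against 99.97, 178 and 108 CPM on HP. In pd1116 it had 166, 279 and 253 CPM on LP, against 119.9, 119.9 and 109 CPM on HP. Both mutants had all LP libraries above all HP libraries. EK of experiment 1 had 156, 95.2 and 125 CPM on LP, against 150.2, 135 and 109 CPM on HP, and these overlapped fully. In experiment 2 the adapted line had 173, 206, 148 and 234 CPM on LP, against 33.9, 57.0 and 37.4 CPM on HP. EK had 78.4, 169 (replicate 2), 86.7 and 98.0 CPM on LP, against 45.9, 65.6 and 47.9 CPM on HP. lpin1 was therefore apart between diets in both lines of experiment 2 and in both mutants of experiment 1. The log2 fold change was 1.496 ± 0.26 in pd1245, 1.00 ± 0.26 in pd1116, -0.06 ± 0.25 in EK of experiment 1, 2.15 ± 0.26 in the adapted line and 1.04 ± 0.25 in EK of experiment 2.

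klf15 (ENSDARG00000091127) encodes a Krüppel-like factor that glucocorticoids induce in mammalian muscle and that activates enzymes of branched-chain amino acid breakdown. Of the 7 it was the one with a positive log2 fold change in EK of experiment 1, at 0.35 ± 0.15, with 64.6 to 68.5 CPM on LP, against 48.6 to 56.7 CPM on HP. In pd1116 it had 62.4 to 96.0 CPM on LP, against 43.7 to 57.0 CPM on HP, and in pd1245 63.1 to 83.2 CPM on LP, against 53.9 to 71.4 CPM on HP. The log2 fold changes were 0.54 ± 0.15 and 0.31 ± 0.15. klf15 was sparse in experiment 2, with 15 to 152 counts per library. The adapted line had 7.90 to 12.9 CPM on LP, against 4.37 to 8.25 CPM on HP, and EK had 7.32 to 11.5 CPM on LP, against 3.46 to 7.43 CPM on HP. Both pairs overlapped slightly, with log2 fold changes of 0.88 ± 0.26 and 0.76 ± 0.27.

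**Figure D2:**
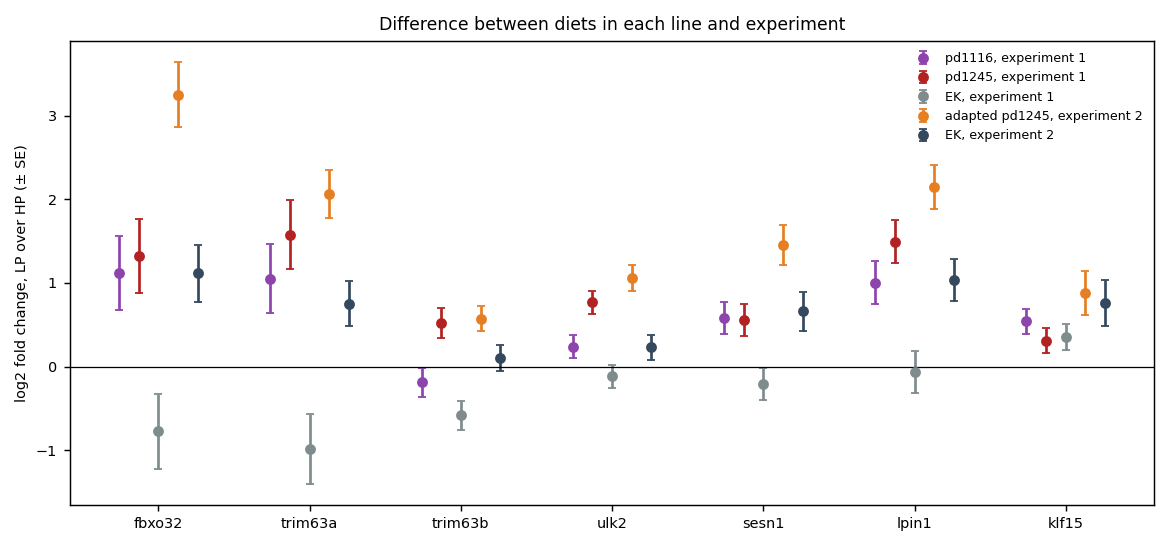
Log2 fold change of LP over HP for each gene (points, with the SE of the fit as bars) in the 5 sets of line and experiment. In EK of experiment 1, 6 of the 7 points are below 0, and in the adapted line, pd1245 and EK of experiment 2 all 7 are above it.

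Side by side, the median log2 fold change of the 7 genes, LP over HP, was 0.77 in pd1245, 0.58 in pd1116 and -0.21 in EK of experiment 1, and 1.45 in the adapted line and 0.75 in EK of experiment 2. Over all genes tested the median was between -0.0046 and 0.0098 in each set. Because the genes were chosen with these contrasts known, the counts past an adjusted p of 0.05 in edgeR's quasi-likelihood test are given only beside the share of all genes, and nothing is read from them. In pd1245, 6 genes passed as higher on LP and none as lower, where 19.1% of all genes passed in either direction. In pd1116 2 passed (lpin1 and klf15), with 6.79% of all genes, and in the adapted line 5 passed, with 1.88%. None passed in EK of experiment 1 by edgeR or DESeq2, where 0.154% of genes passed edgeR and 1796 had an unadjusted p below 0.05. None passed in EK of experiment 2, where 0.078% did and 1910 had an unadjusted p below 0.05, although DESeq2 passed 1 of the 7. The 6 of pd1245 became 2 without HP replicate 1, HP replicate 3 or LP replicate 3, and 3 without LP replicate 2. In a fit of the 2 pd1245 groups alone no gene at all passed. The 2 of pd1116 became 0 without any of the HP replicates, without LP replicate 2 or without LP replicate 3, and the 5 of the adapted line stayed at 5 or more without any library. LP libraries lay above all HP libraries for 2 genes in pd1245 (15.1% of all genes did so), 5 in pd1116 (17.4%), 1 in EK of experiment 1 (klf15, 8.45%), 6 in the adapted line (10.4%) and 4 in EK of experiment 2 (5.02%). In EK of experiment 1 the LP libraries of trim63b lay below all HP libraries, as 8.85% of all genes did.

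Leaving out 1 library changed the size of some of these fold changes. Replicate 1 on HP of EK in experiment 1 was the highest of its group for all of the genes but ulk2, and without it the log2 fold changes of fbxo32, trim63a and sesn1 were -0.24, -0.43 and -0.06. lpin1 there ranged from -0.24 without LP replicate 1 to 0.11 without LP replicate 2. Leaving out HP replicate 2 of pd1245 gave a higher value for fbxo32, at 1.91. Without LP replicate 2 of pd1116 the values there were 0.75 for fbxo32 and 0.32 for klf15. Replicate 2 on LP of EK in experiment 2 was the highest of its group for all but trim63b, and without it the log2 fold changes were 0.69 for fbxo32, 0.46 for trim63a, 0.39 for sesn1 and 0.73 for lpin1. In experiment 1, pd1245 on LP replicate 3 was the highest library of all for 4 of the 7 genes. Without it the values in pd1245 were 1.221 for trim63a, 0.63 for ulk2 and 1.25 for lpin1. In experiment 2, adapted LP replicate 4 was the highest for 5 of the 7.

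The log2 fold change between diets in a mutant, minus that in EK, was estimated with no test. For pd1245 minus EK it was 2.1 ± 0.62 for fbxo32, 2.57 ± 0.59 for trim63a, 1.11 ± 0.25 for trim63b, 0.89 ± 0.19 for ulk2, 0.77 ± 0.27 for sesn1 and 1.56 ± 0.36 for lpin1. klf15 was the exception at -0.04 ± 0.21. In pd1116 minus EK the values were 1.90 ± 0.63 for fbxo32, 2.04 ± 0.59 for trim63a, 0.79 ± 0.27 for sesn1 and 1.07 ± 0.36 for lpin1. trim63b, ulk2 and klf15 were at 0.39 ± 0.25, 0.36 ± 0.19 and 0.19 ± 0.21. In the adapted line minus EK they were 2.14 ± 0.52 for fbxo32, 1.31 ± 0.39 for trim63a, 0.83 ± 0.21 for ulk2, 0.79 ± 0.32 for sesn1 and 1.12 ± 0.35 for lpin1, with trim63b at 0.47 ± 0.22 and klf15 at 0.12 ± 0.37. Both mutants of experiment 1 are set against the same EK libraries. Between the alleles, pd1116 minus pd1245 was -0.53 ± 0.19 for ulk2 and -0.71 ± 0.25 for trim63b, and the other 5 values were between -0.53 and 0.23 with an SE of 0.21 to 0.62.

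Lines were then compared on one diet, a contrast that the choice of genes did not name but that uses the same libraries. The 7 were chosen with LP against HP values of these libraries known, so their p-values between lines are not independent of that choice. On LP, pd1245 had more fbxo32, trim63a, ulk2, sesn1 and lpin1 than EK. fbxo32 averaged 82.7 ± 28.6 CPM in pd1245 and 19.3 ± 9.39 CPM in EK (SD, n = 3 each). lpin1 averaged 362 ± 126.5 CPM in pd1245 and 125.5 ± 30.3 CPM in EK (SD, n = 3 each). ulk2 averaged 259 ± 45.9 CPM in pd1245 and 141 ± 20.1 CPM in EK (SD, n = 3 each). In edgeR's quasi-likelihood test with Benjamini-Hochberg adjustment, fbxo32 was higher by 2.09 ± 0.45 on the log2 scale (adjusted p = 0.00217) and trim63a by 1.92 ± 0.42 (adjusted p = 0.00254). By the same test ulk2 was higher by 0.88 ± 0.14 (adjusted p = 2.03e-04), sesn1 by 0.79 ± 0.19 (adjusted p = 0.00477) and lpin1 by 1.53 ± 0.26 (adjusted p = 3.73e-04). For trim63b (0.26 ± 0.18, adjusted p = 0.28) and klf15 (0.16 ± 0.15, adjusted p = 0.45) edgeR found no difference past the threshold. The count of 5 of 7 stands beside 31.8% of all genes that passed in this contrast (16% as higher and 15.8% as lower), and the same 5 passed under each of 11 alternatives, including without LP replicate 3 of pd1245.

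On LP the pd1116 mean lay between those of pd1245 and EK for each gene but klf15. Against EK, edgeR passed 2 genes as higher: sesn1 by 0.70 ± 0.19 (adjusted p = 0.0338) and lpin1 by 0.89 ± 0.26 (adjusted p = 0.0423), where 6.68% of all genes passed. trim63a, at 1.30 ± 0.42, and fbxo32, at 1.24 ± 0.45, had edgeR adjusted p-values of 0.0712 and 0.108; trim63a passed under 3 of 12 alternatives, among them no filter on low counts (adjusted p = 0.0435), and fbxo32 under 1. The call of sesn1 was lost without any of the EK replicates on LP or without pd1116 replicate 2 or 3 (edgeR adjusted p between 0.0740 and 0.164). That of lpin1 was lost without EK replicate 2 or 3 or pd1116 replicate 2 or 3 (edgeR adjusted p between 0.119 and 0.196), and with a replicate block (0.86, edgeR adjusted p = 0.0641). Against pd1245 on LP, ulk2 was lower in pd1116 with a log2 fold change of -0.57 ± 0.14 (edgeR adjusted p = 0.00867), at 175 ± 16.3 CPM in pd1116 and 259 ± 45.9 CPM in pd1245 (SD, n = 3 each). It was the 1 gene of 7 to pass, where 20.2% of all genes did, and it did not pass in a fit of those 2 groups alone (edgeR adjusted p = 0.0928). lpin1 also passed without pd1245 replicate 1 (-0.88, edgeR adjusted p = 0.0135).

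On HP fewer of the 7 passed. Against EK, pd1245 differed in trim63b, which averaged 29.0 ± 5.89 CPM in pd1245 and 52.2 ± 11.8 CPM in EK (SD, n = 3 each). The log2 fold change was -0.85 ± 0.18 (edgeR adjusted p = 0.00927), the 1 gene of 7 to pass where 4.16% of all genes did. In the same contrast 11 of 24 fast muscle markers and 2 of 11 slow muscle markers were lower and none of either higher, with list medians of -0.50 and -0.34, and the part of these in the value of trim63b was not tested. The call was lost without EK replicate 1 (edgeR adjusted p = 0.054) or without pd1245 replicate 1 (edgeR adjusted p = 0.0625). The other 6 genes had log2 fold changes of -0.65 to 0.20. ulk2, sesn1 and lpin1, at -0.01 ± 0.14, 0.03 ± 0.19 and -0.03 ± 0.25, had 95% intervals of -0.28 to 0.26, -0.35 to 0.40 and -0.53 to 0.47. None of the 7 passed edgeR's test in pd1116 against EK on HP, where 2.9% of genes passed and 3030 had an unadjusted p below 0.05, and DESeq2 also passed none. None passed edgeR's test between pd1116 and pd1245 on HP, where 11.9% of genes passed and 5830 had an unadjusted p below 0.05. trim63b was nearest there, at 0.53 ± 0.18 (edgeR adjusted p = 0.0583), and passed under 5 of 12 alternatives, among them DESeq2 (adjusted p = 0.0343). There 11 of 24 fast muscle and 4 of 11 slow muscle markers were higher and none of either lower.

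In experiment 2 fbxo32 was lower in the adapted line than in EK on HP. It averaged there 2.29 ± 1.25 CPM in the adapted line and 9.60 ± 0.838 CPM in EK (SD, n = 3 each), a log2 fold change of -2.07 ± 0.43 (edgeR adjusted p = 0.0169). It was the 1 of 7 to pass where 1.44% of all genes did. The call was lost without EK replicate 2 or 3, or without adapted replicate 2 or 3 (edgeR adjusted p between 0.0521 and 0.0836). ulk2 at -0.61 ± 0.16 and trim63a at -0.999 ± 0.30 had edgeR adjusted p-values of 0.0698 and 0.122; ulk2 passed with DESeq2 and without EK replicate 3. On LP none of the 7 passed edgeR's test, where 2.36% of all genes did and 1806 had an unadjusted p below 0.05. lpin1, at 190.1 ± 37.6 CPM in the adapted line and 108 ± 41.5 CPM in EK (SD, n = 4 each), was nearest with 0.81 ± 0.22 (edgeR adjusted p = 0.0684), and passed under 4 of 14 alternatives, among them DESeq2 (adjusted p = 0.0235) and the fit without EK replicate 2 on LP (1.12, edgeR adjusted p = 0.00291). fbxo32 on LP had a log2 fold change of 0.07 ± 0.28, with a 95% interval of -0.49 to 0.62. That the lines differ on one diet and not on the other was not tested apart from the estimates above.

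**Figure D3:**
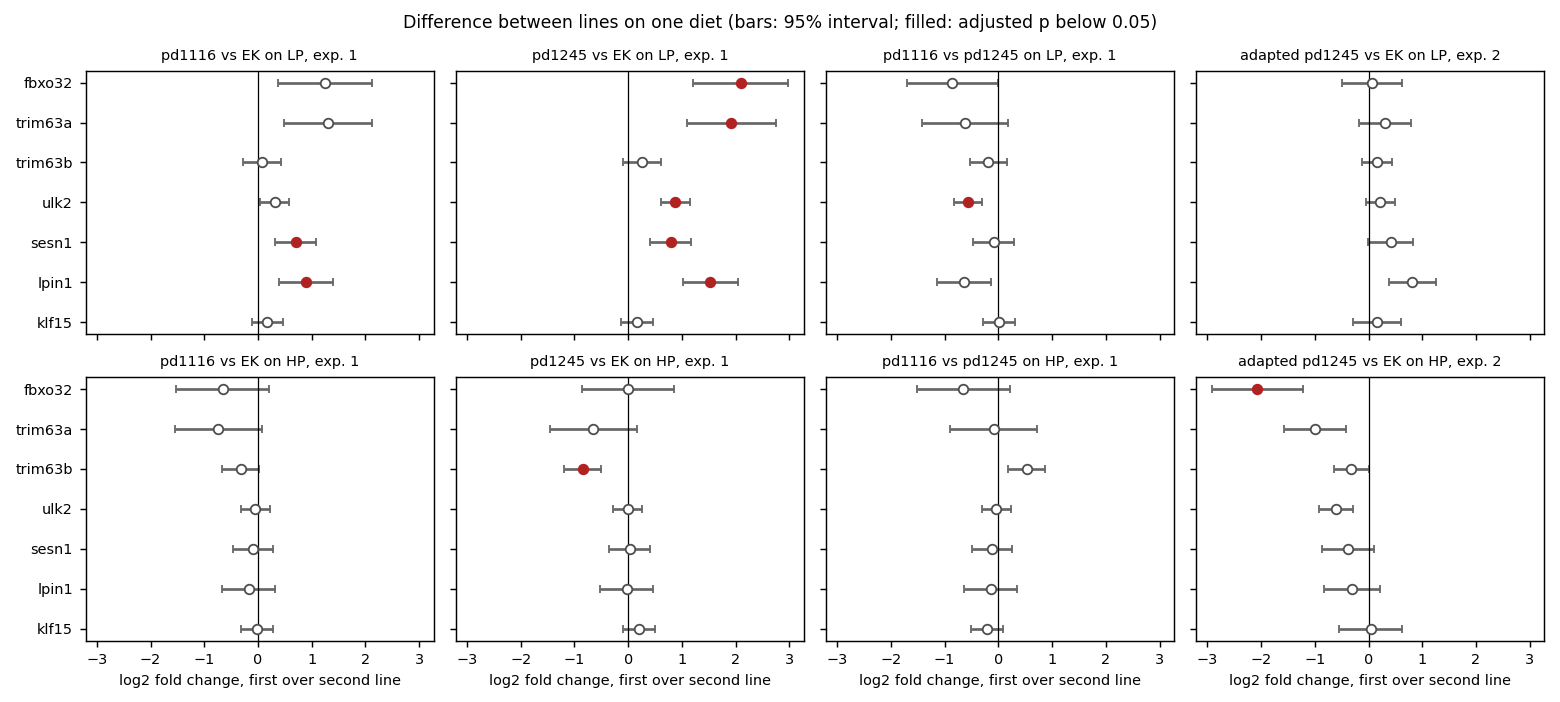
Log2 fold change of the first line over the second on LP (upper row) and HP (lower row), with 95% intervals as bars. Filled points passed an adjusted p of 0.05. On LP 5 genes are filled in pd1245 against EK, 2 in pd1116 against EK (sesn1 and lpin1) and 1 in pd1116 against pd1245 (ulk2); on HP trim63b is filled in pd1245 against EK and fbxo32 in the adapted line against EK.

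The genes whose pattern was most like the mean of the 7 were found by correlating 16038 genes with that mean over the 18 libraries of experiment 1. The likeness is a description, since libraries of a group share line and diet. The 8 closest were retreg1 (r = 0.956), MKNK2 (0.951), FOXO4 (0.934), ARRDC2 (0.934), IRS2 (0.924), SIRT1 (0.921), tob1b (0.92) and BNIP3 (0.919). FOXO4 is a FoxO factor itself and IRS2 an adaptor of the insulin receptor. retreg1 encodes a receptor for autophagy of the endoplasmic reticulum and BNIP3 one for mitochondria. SIRT1 is a deacetylase that acts on FoxO factors, and MKNK2 a kinase of the translation factor eIF4E. Over the 14 libraries of experiment 2 the correlation with the mean of the 7 was 0.925 for SIRT1, 0.912 for FOXO4, 0.88 for MKNK2, 0.833 for IRS2, 0.773 for tob1b, 0.732 for retreg1 and 0.65 for ARRDC2. BNIP3 did not pass the filter there. Of the 13504 genes compared in experiment 2, 0.111% had a higher correlation than SIRT1, 0.193% than FOXO4, 0.459% than MKNK2 and 1.09% than IRS2. The shares were 2.27% for tob1b, 3.42% for retreg1 and 6.05% for ARRDC2. For retreg1 the log2 fold change, LP over HP, was 1.69 in pd1245, 1.475 in pd1116, 2.27 in the adapted line and -0.50 in EK of experiment 1, and 0.08 in EK of experiment 2, where fbxo32 had 1.12.

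**Figure D4:**
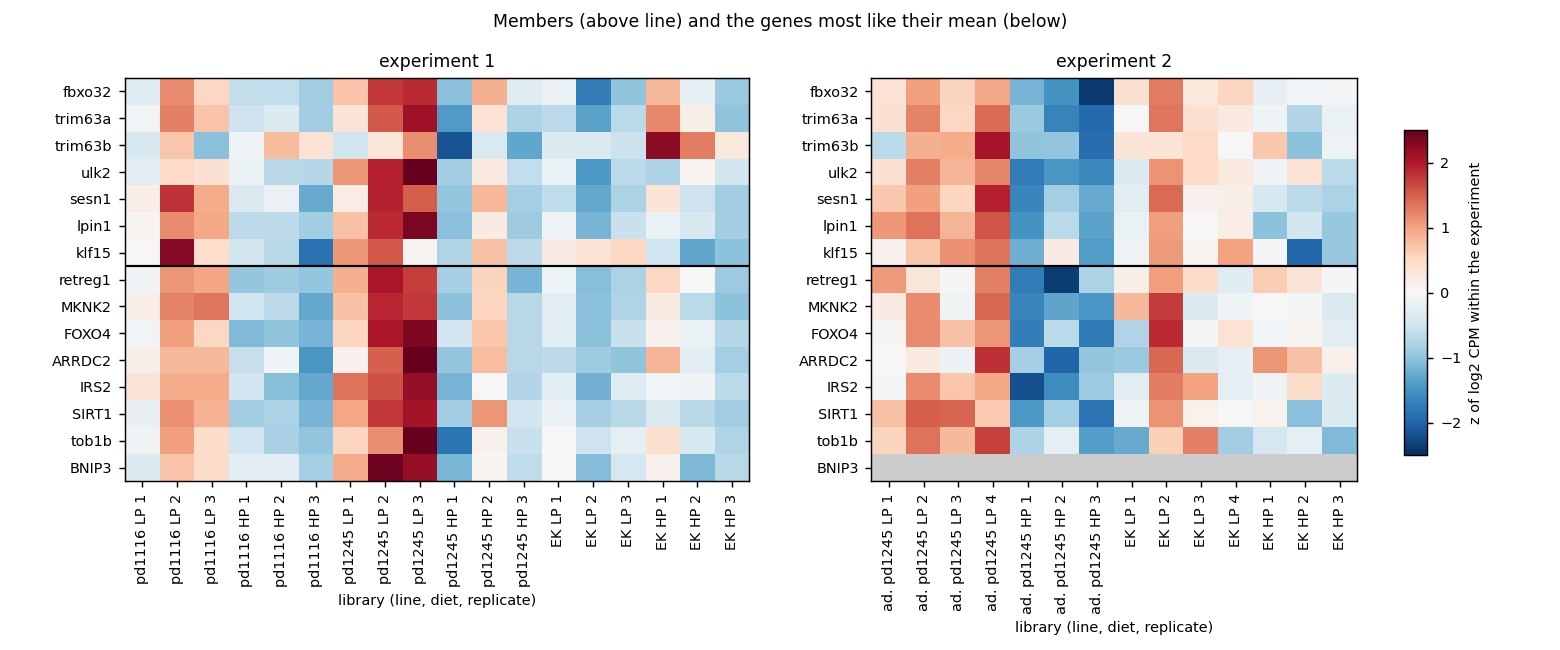
Each cell is a gene's log2 CPM in 1 library as a z value within the experiment, red above and blue below the gene's mean, with the 7 genes above the line and the 8 most like them below it. All pd1245 LP libraries, pd1116 LP replicates 2 and 3, pd1245 HP replicate 2 and EK HP replicate 1 are red for most rows of experiment 1. The 3 adapted HP libraries are blue for most rows of experiment 2. Grey marks BNIP3, which was not tested in experiment 2.

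Genes around the 7 in the same pathways were taken from lists and tested in the same fits. Some lists share genes, so counts of different lists are not independent of each other. IRS2 and igfbp1b are in both the FoxO target and the insulin and FoxO signalling lists. ULK3 is in both the ULK complex list and the list of relatives. The lists were chosen with earlier results of LP against HP known, so their counts and p-values in that contrast are not independent evidence of a direction. In a fit of the 2 pd1245 groups alone 0 genes of all tested passed, so every call in pd1245 given here is lost in that fit. Of 41 tested FoxO target genes of fasting, 12 were higher and 2 lower on LP in pd1245, where 9.33% of all genes were called higher and 9.78% lower, and 5 were higher and 1 lower of 38 in the adapted line, where 1.1% were called higher and 0.78% lower. The median log2 fold change of the list was 0.23 in pd1245 and 0.31 in the adapted line, with 0.0063 and 0.0098 over all genes tested. Both genes for the translation repressor 4E-BP3 rose in both lines by edgeR's test. eif4ebp3 (ENSDARG00000054916) averaged 66.2 ± 21.2 CPM in pd1245 on LP and 32.1 ± 9.08 CPM on HP (SD, n = 3 each), a log2 fold change of 1.04 ± 0.20 (adjusted p = 0.00276). EIF4EBP3 (ENSDARG00000041607) averaged 199 ± 37.1 CPM in the adapted line on LP and 68.7 ± 20.3 CPM on HP (SD, n = 4 on LP and 3 on HP), a log2 fold change of 1.53 ± 0.27 (adjusted p = 0.00745). BNIP3 rose by 0.74 ± 0.14 in pd1245 (edgeR adjusted p = 0.00259).

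Of the insulin and FoxO signalling genes 5 of 30 rose and none fell in pd1245, and 4 of 25 rose and none fell in the adapted line (LP over HP). The list's median was 0.20 in pd1245 and 0.32 in the adapted line. Over all genes 9.33% were called higher and 9.78% lower in pd1245, and 1.1% and 0.78% in the adapted line. IRS2 rose by 0.66 ± 0.11 in pd1245 (edgeR adjusted p = 0.00137) and by 0.80 ± 0.16 in the adapted line (edgeR adjusted p = 0.0195). igfbp1b, a binding protein of insulin-like growth factors, averaged 184 ± 35.9 CPM in pd1245 on LP and 94.3 ± 21.4 CPM on HP, and 71.7 ± 31.6 CPM in the adapted line on LP and 15.9 ± 7.78 CPM on HP (SD, n = 3 each in pd1245, 4 on LP and 3 on HP in the adapted line). Its log2 fold changes were 0.97 ± 0.20 and 2.17 ± 0.43 (edgeR adjusted p = 0.00496 and 0.0158). FOXO1 rose by 0.56 ± 0.10 in pd1245 (edgeR adjusted p = 0.00218), and FOXO4 by 0.34 ± 0.10 there and 0.73 ± 0.18 in the adapted line (edgeR adjusted p = 0.0222 and 0.0427). PDPK1, the kinase that activates AKT, rose by 1.73 ± 0.31 in the adapted line (edgeR adjusted p = 0.00745).

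In the list of sestrin, GATOR and mTORC1 genes, 10 of 40 were higher and 4 lower on LP in pd1245, and 3 of 35 were higher and none lower in the adapted line, with list medians of 0.07 and 0.06. Over all genes 9.33% were called higher and 9.78% lower in pd1245, and 1.1% and 0.78% in the adapted line. TSC1, which encodes a subunit of the complex that holds Rheb inactive, rose by 0.57 ± 0.13 in pd1245 and 1.03 ± 0.25 in the adapted line (edgeR adjusted p = 0.00639 and 0.0386), and akt1s1, which encodes PRAS40, by 0.51 ± 0.10 and 0.74 ± 0.16 (edgeR adjusted p = 0.00413 and 0.0247). TSC2, the partner of TSC1, rose by 0.71 ± 0.14 in pd1245 (edgeR adjusted p = 0.00317) and FLCN, encoding folliculin, by 1.05 ± 0.20 in the adapted line (edgeR adjusted p = 0.0137), while rhebl1, a relative of the mTORC1 activator Rheb, fell by 0.32 ± 0.08 in pd1245 (edgeR adjusted p = 0.00881). Among genes of the ULK complex and autophagy initiation, 3 of 28 rose in pd1245 and 2 of 24 in the adapted line, and none fell, with list medians of 0.14 and 0.43; 3 of 28 stands beside the 9.33% of all genes called higher in pd1245. ulk1a rose by 0.44 ± 0.14 in pd1245 (edgeR adjusted p = 0.0418), and ATG13 by 0.59 ± 0.15 in the adapted line (edgeR adjusted p = 0.0445).

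Glucocorticoid receptor and target genes were called higher for 6 of 28 in pd1245 and none of 26 in the adapted line, with none lower and list medians of 0.26 and 0.20. CEBPD averaged 395 ± 127 CPM in pd1245 on LP and 233 ± 42.3 CPM on HP (SD, n = 3 each), higher by 0.76 ± 0.20 (edgeR adjusted p = 0.0132), and PCK1, an enzyme of gluconeogenesis, rose by 0.52 ± 0.15 (edgeR adjusted p = 0.0191). Other muscle ubiquitin ligases and proteolysis genes split, with 5 higher and 4 lower of 34 in pd1245 and 0 of 29 in the adapted line. Among relatives of the 7 genes, 6 of 18 were higher and 3 lower in pd1245, and 1 of 14 was higher in the adapted line. The counts of these lists stand beside 9.33% of all genes called higher and 9.78% lower in pd1245. In the adapted line 1.1% of all genes were called higher and 0.78% lower. TRIM55, encoding the MuRF1 relative MuRF2, rose by 0.79 ± 0.16 in pd1245 and 1.221 ± 0.26 in the adapted line (edgeR adjusted p = 0.00366 and 0.0224). The 2 KLF11 genes (ENSDARG00000030844 and ENSDARG00000013794) fell by 0.58 ± 0.13 and 0.73 ± 0.17 in pd1245 (edgeR adjusted p = 0.00757 and 0.00918).

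Of the lipin, glycerolipid and PGC-1 genes beside lpin1, 4 of 33 were higher and 8 lower on LP in pd1245, and 1 was higher and 2 were lower of 25 in the adapted line, with list medians of -0.12 and -0.10. GPAT3, of glycerolipid synthesis, fell by 0.78 ± 0.14 in pd1245 (edgeR adjusted p = 0.00225). The lipid droplet gene PLIN2 fell by 1.99 ± 0.38 in the adapted line (edgeR adjusted p = 0.0112), at 1.80 ± 0.878 CPM on LP and 7.23 ± 1.77 CPM on HP (SD, n = 4 on LP and 3 on HP). Branched-chain amino acid and alanine enzymes, among them targets of klf15 in mouse, were called higher for 3 of 22 and lower for 2 in pd1245, and 0 of 22 in the adapted line. The counts in pd1245 stand beside 9.33% of all genes called higher and 9.78% lower. Those in the adapted line stand beside 1.1% called higher and 0.78% lower. In pd1245 GPT, alanine aminotransferase, rose by 0.81 ± 0.13 (edgeR adjusted p = 0.00126). BCAT1 rose there by 0.63 ± 0.13 and BCAT2 by 0.52 ± 0.13 (edgeR adjusted p = 0.00503 and 0.0124). GOT2, among the 2 called lower, had a log2 fold change of -0.61 ± 0.11 (edgeR adjusted p = 0.00239).

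In pd1116, 6.79% of all genes passed in either direction between LP and HP. On LP 5 were higher and 1 lower of 41 FoxO targets, and 4 higher and 1 lower of 30 insulin and FoxO signalling genes. Sestrin, GATOR and mTORC1 genes had 3 higher and 1 lower of 40, and lipin list genes 4 and 2 of 33. ULK complex genes had 1 higher and 0 lower of 28, and branched-chain and alanine enzymes 1 and 0 of 22. Glucocorticoid genes (28 tested), relatives (18) and proteolysis genes (34) each had 0 higher and 1 lower. In EK edgeR's test passed no gene of the FoxO target, signalling and mTORC1 lists in either experiment. Over all genes 0.154% passed in experiment 1 and 0.078% in experiment 2, so 0 says little of these lists. By edgeR's unadjusted p below 0.05 there were 4 of 41, 6 of 30 and 1 of 40 in experiment 1, and 1796 of all 22742 genes. In experiment 2 there were 9 of 38, 5 of 25 and 3 of 35, and 1910 of all 16671 genes. Without pd1245 on LP replicate 3, the counts in pd1245 were 6 higher and 2 lower FoxO targets, 6 higher and 0 lower insulin and FoxO signalling genes, 5 higher and 2 lower sestrin, GATOR and mTORC1 genes, 3 higher glucocorticoid genes, 1 higher ULK complex gene, 2 higher and 2 lower relatives, 3 higher and 3 lower proteolysis genes, 2 higher and 2 lower branched-chain and alanine enzymes, and 2 higher and 2 lower lipin list genes. In the same fit pd1116 had 8 higher and 3 lower FoxO targets and 7 higher and 2 lower insulin and FoxO signalling genes. It also had 8 higher and 4 lower sestrin, GATOR and mTORC1 genes. Glucocorticoid genes, relatives, and branched-chain and alanine enzymes each had 1 higher and 3 lower there. Proteolysis genes had 4 higher and 2 lower, ULK complex genes 2 and 0, and lipin list genes 6 and 5. Over all genes tested, 3506 passed in pd1116 LP against HP in that fit, against 1545 with every library. In pd1245 LP against HP, fits without 1 of its libraries passed 1278 to 5810 genes, against 4346 with every library. With every library, 5 insulin and FoxO signalling genes were higher in pd1245, so that list did not fall without LP replicate 3. The number of all genes that passed changed with the library left out, and nothing is read from the change in the list counts. Without EK on HP replicate 2, 756 of all genes tested passed in the adapted line LP against HP, against 314 with every library. In that fit the adapted line had 9 higher and 1 lower FoxO targets, 5 higher signalling genes and 5 higher sestrin, GATOR and mTORC1 genes. It had 4 higher ULK complex genes, 2 higher branched-chain and alanine enzymes, and 2 higher and 1 lower proteolysis genes. There were also 1 higher and 1 lower glucocorticoid genes, and 2 higher and 2 lower lipin list genes.

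**Figure D5:**
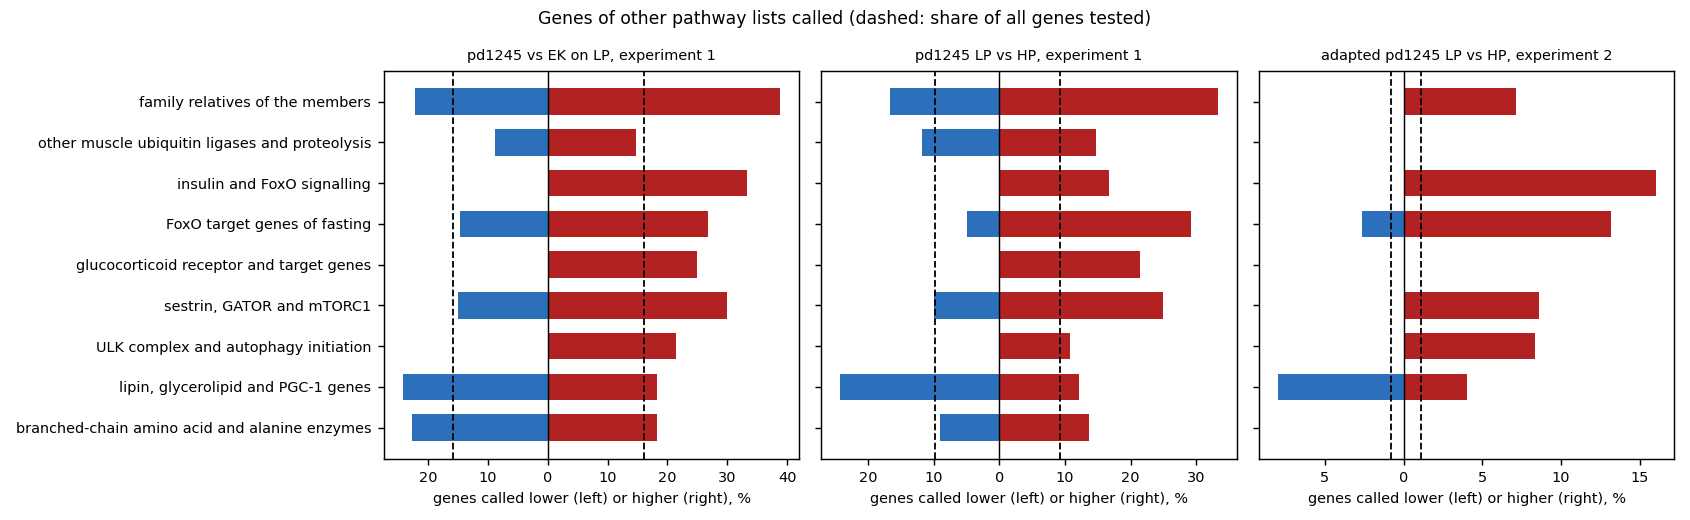
Share of the tested genes of each list called higher (red, right) or lower (blue, left) for pd1245 against EK on LP, for LP against HP in pd1245 and for LP against HP in the adapted line. Dashed lines give the share over all genes tested. In pd1245 against EK on LP, 16% of all genes were called higher and 15.8% lower. Insulin and FoxO signalling genes had 10 higher and 0 lower of 30 there. Glucocorticoid receptor and target genes had 7 higher and 0 lower of 28, and ULK complex and autophagy initiation genes 6 and 0 of 28. Among lists with calls in both directions were FoxO targets, with 11 higher and 6 lower of 41. Sestrin, GATOR and mTORC1 genes had 12 and 6 of 40, and lipin list genes 6 and 8 of 33.

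Marker genes of muscle were measured beside these. Fast muscle markers were called higher for 2 of 24 (ckma and ckmb) and lower for 2 (CASQ1 and tnnc2.1) on LP in pd1245, and for 0 of 24 in the adapted line. The summed level of the 24 was 41450 to 64220 CPM in pd1245 on LP, against 36760 to 45910 CPM on HP, and the highest value is that of LP replicate 3. It was 50940 to 72760 CPM in the adapted line on LP, against 53780 to 85390 CPM on HP, overlapping. In EK of experiment 1 it was 44560 to 50070 CPM on LP, against 57180 to 63830 CPM on HP. The summed markers were therefore lower on LP there, and 2 of 24 markers passed as lower. Over all genes, 0.154% passed there in either direction. An unadjusted edgeR p below 0.05 was found there for 9 of 24 markers and 1796 of all 22742 genes. The means of all of the 7 genes but klf15 were also lower on LP there. Slow muscle markers passed for 1 of 11 in pd1245 (TNNT1, higher) and 0 of 11 in the adapted line, and cardiac markers for 0 of 12 in each. Of other tissues, intestine markers were lower for 7 of 14 and hepatocyte markers higher for 1 and lower for 4 of 12 on LP in pd1245. Their summed levels in pd1245 overlapped between diets. Intestine markers summed to 6706 to 8162 CPM on LP, against 6560 to 9767 CPM on HP, and hepatocyte markers to 3286 to 3616 CPM, against 3457 to 6521 CPM. None of either passed in the adapted line. These marker counts stand beside 9.33% of all genes called higher and 9.78% lower in pd1245, and 1.1% and 0.78% in the adapted line. In pd1245 against EK on LP, fast muscle markers were higher for 2 and lower for 8 of 24 (2 and 13 without pd1245 LP replicate 3), slow muscle markers lower for 3 of 11, cardiac markers lower for 4 of 12, hepatocyte markers higher for 1 and lower for 6 of 12, and intestine markers lower for 12 of 14. The median of the fast muscle list there was -0.12, and -0.31 without that library, while the 5 genes that passed were higher. Over all genes tested in that contrast, 16% were called higher and 15.8% lower. In pd1116 LP against HP, fast muscle markers were higher for 2 and lower for 3 of 24, where 6.79% of all genes passed. The part of tissue content in the values of the 7 genes was not tested.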

How the data were processed

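The authors deposited raw read counts per gene for experiment 1, made with FastQC 0.11.7, Trim Galore 0.6.5, STAR 2.7.3a and HTSeq 0.11.1, per the submitters' processing notes. For experiment 2 they deposited a table of expected counts, partly fractional, made with fastp 0.24.0, STAR 2.7.11 and featureCounts of Subread 2.1.1 per the same notes. The build is GRCz11; the annotation release, the strand setting and whether molecular identifiers were collapsed are not given in the sources used here. Of the expected counts above 0, 78.33% to 84.85% per library lay within 0.005 of a whole number; they were rounded for the fit. The CPM columns and the variance-stabilised table that the authors deposited were not used. Rows naming no gene (14.62% to 16.76% of reads in experiment 1) and 92 spike-ins were left out. Columns of experiment 2 were matched to libraries by the number in the sample title.

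Each experiment was fitted with edgeR 4.0.16 in R 4.3.3 (TMM, filterByExpr, 1 coefficient per group, all groups together, quasi-likelihood F test, 2-sided, Benjamini-Hochberg over 22742 or 16671 genes, threshold 0.05). CPM uses the TMM-scaled library size, and SE divides the log2 fold change by the root of F. Intervals of 95% are 1.96 SE to each side, a normal approximation that is narrower than the F test implies. The steps were also run on simulated counts with genes changed in 1 group only, which does not test the calls given here. Levels were not compared between genes, since no lengths were used. The members and lists were chosen with earlier results of these data known. Genes named were the 7, up to 4 called genes with the smallest p per list in the LP against HP contrasts of pd1245 and of the adapted line (some are left out), the 8 genes most like the mean z of the 7 (log2 CPM with a prior count of 2, mean CPM of at least 2), pllp and muscle markers. Symbols of other genes keep the case of the gene table, the 7 are in lower case, and genes sharing a symbol carry their identifier. Alternatives were other scalings, no filter, a replicate block, a fit of the 2 groups compared, DESeq2 1.42.0 and fits without single libraries; leaving out EK on HP replicate 2 of experiment 2 in comparisons that do not hold it was added after seeing the data.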

Additional observations from a re-analysis of the deposited data

How the results depend on the processing

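No call changed its direction under any alternative; 39 log2 fold changes between lines changed sign, in 17 results, and 0 of these was past the threshold in either fit. Of the 7 genes, the number past the threshold in pd1245 against EK on LP was 5 under each alternative and without each replicate. Fitting only the 2 groups compared gave 0 in pd1245 LP against HP (6 in the fit of all groups), 5 in pd1116 LP against HP (2), 4 in pd1116 against EK on LP (2), 0 in pd1116 against pd1245 on LP (1) and 1 in pd1116 against pd1245 on HP (0). DESeq2 gave 1 in pd1116 against pd1245 on HP (0), 1 in EK LP against HP of experiment 2 (0), 1 in the adapted line against EK on LP (0) and 2 on HP (1), and no filter gave the same 4 counts, and 3 in pd1116 against EK on LP (2), where trim63a also passed. Replicate numbers did not pair the libraries: 0 of the 15 group pairs of experiment 1, and 0 of the 6 of experiment 2, had a correlation above 0.1 for every number. A replicate block gave 1 in pd1116 against EK on LP (2), 1 in EK LP against HP of experiment 2 (0) and 1 in the adapted line against EK on LP (0).

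Leaving out each replicate in turn gave 2 to 6 in pd1245 LP against HP, 0 to 3 in pd1116 LP against HP, 0 to 0 in EK of both experiments, 5 to 7 in the adapted line LP against HP, 0 to 3 in pd1116 against EK on LP, 0 to 0 on HP, 0 to 1 in pd1245 against EK on HP, 1 to 2 in pd1116 against pd1245 on LP and 0 to 1 on HP, and 0 to 1 in the adapted line against EK on each diet. Over all genes, 4346 passed in pd1245 LP against HP, 0 in a fit of those 2 groups and 1278 without HP replicate 3. The cause was not tested. fbxo32 and klf15 in experiment 2 are limited by low counts, with 11 to 460 and 15 to 152 counts per library. The part of depth and of the library kit in these low counts was not tested.

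Between lines, fbxo32 in pd1245 against EK on HP was 8.07e-05 with RLE scaling and 0.0035 with DESeq2 (-0.0076 in the fit of all groups), sesn1 there was -0.00039 and klf15 in the adapted line against EK on HP -0.022 with a replicate block. The leave-one-out ranges that crossed 0 were, in pd1245 against EK on HP, -0.60 to 0.53 for fbxo32, -0.12 to 0.075 for ulk2, -0.21 to 0.17 for sesn1 and -0.33 to 0.13 for lpin1. In pd1116 against EK they were -0.11 to 0.039 for ulk2, -0.18 to 0.057 for sesn1 and -0.087 to 0.097 for klf15 on HP, and -0.11 to 0.20 for trim63b and -0.042 to 0.29 for klf15 on LP. In pd1116 against pd1245 they were -0.36 to 0.42 for trim63a, -0.11 to 0.081 for ulk2, -0.23 to 0.13 for sesn1 and -0.30 to 0.17 for lpin1 on HP, and -0.26 to 0.053 for sesn1 and -0.19 to 0.14 for klf15 on LP. In the adapted line against EK they were -0.30 to 0.34 for klf15 on HP and -0.087 to 0.49 for fbxo32 on LP.

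Over all genes, counts past the threshold that moved by over 1.5 times ranged over the alternatives, single libraries left out included, from 1 to 175 in EK LP against HP of experiment 1 (35), 520 to 3636 in pd1116 LP against HP (1545), 3310 to 7845 in pd1245 against EK on LP (7232), 379 to 2169 on HP (947), 752 to 3192 in pd1116 against EK on LP (1519), 392 to 1246 on HP (659), 585 to 5899 in pd1116 against pd1245 on LP (4590) and 1549 to 4557 on HP (2699). In experiment 2 they ranged from 11 to 148 in EK LP against HP (13), 60 to 756 in the adapted line LP against HP (314), and 247 to 541 (394) and 126 to 377 (240) in the adapted line against EK on LP and on HP.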
